A study of Homo sapiens with 3 samples.

Results

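The 7 transcripts described here hold peaks of TIA1 contact with some of the highest folds over input in HEK293T cells. They are TMCO1, ARL6IP1, TMBIM6, NUP210, DGCR2, GPC3 and BEX3, which is also called NGFRAP1. Each holds a peak among the 10 with the highest log2 fold in the authors' list of 2253 reproducible peaks. The other 3 of those 10 lie elsewhere. The 7 were chosen as messages with the strongest single 3' end sites, so the log2 fold and the place near the 3' end took part in the choice. Both are given only as a description. Within their bounds the lists held 17 reproducible peaks, 134 of the 103134 clusters of replicate 1 and 79 of the 66222 clusters of replicate 2, on the strand of each gene.

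RNA contacts were mapped by eCLIP. In this assay ultraviolet light crosslinks proteins to bound RNA, the RNA recovered with 1 protein is sequenced, and an input without immunoprecipitation serves as the background. The groups were 2 immunoprecipitated replicates (anti-TIA1 antibody) and 1 input, all from HEK293T, a widely used cell line from human embryonic kidney, exposed to 600 mJ of ultraviolet light. No group carried a further treatment or genetic change. The labels conflict on whether the replicates are technical or biological, name the cells HEK293 in the growth protocol, and give the catalogue number of the TIA1 antibody to an Msi1 antibody in the treatment protocol, so differences between replicates may measure technical spread only.

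TIA1 is an RNA-binding protein that prefers U-rich RNA. It is known for helping the choice of splice sites from U-rich intron starts in the nucleus, for holding back translation of messages through U-rich and AU-rich stretches of their 3' ends in the cytoplasm, and for gathering in stress granules. Of the 7 messages, 6 encode proteins that sit in or on a membrane, a share that was not compared with that of other messages. TMCO1 and TMBIM6 (Bax inhibitor-1) span the endoplasmic reticulum membrane and are tied to its calcium balance, and ARL6IP1 helps to shape its tubules. NUP210 is a membrane protein of the nuclear pore, DGCR2 is a receptor-like membrane protein, and GPC3 is a glypican, a heparan sulfate proteoglycan anchored at the cell surface. BEX3 is a small adaptor protein that binds a neurotrophin receptor.

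The lists hold positions but no bases, and a genome of their build was not used here, so the letters under the peaks are not shown. To show a U-rich stretch of each message, the longest run of T (U in the RNA) after the stop codon was taken. It came from GENCODE release 29 transcripts (GRCh38), in the transcript that ends farthest downstream. Of equally long runs the most upstream was taken. The 30 bases around it follow 5′ to 3′, with the run in capitals.
TMCO1: tttgttgttgTTTTTTTTTcaagccaaata
ARL6IP1: atatgtttgaTTTTTTTTTattatttcata
TMBIM6: ccctgtttttgTTTTTTTagtttgttatcc
NUP210: ttaaatgtgtgTTTTTTTcctttcaagtct
DGCR2: cttgatgcctgTTTTTTTatgttttcatta
GPC3: tttttctaTTTTTTTTTTTTTgttatcctg
BEX3: cccgctgttttcTTTTTccttgcattttcc
The sequences are shown because runs of U are the kind of RNA that TIA1 is known to bind. The run was longest in GPC3, with 13 T, and shortest in BEX3, with 5. Longest runs after the stop codon were not compared with those of other genes. Counted from the end of its own transcript to its nearer edge, the run lay closest to the end in DGCR2 (111 nt), ARL6IP1 (188 nt), BEX3 (198 nt) and GPC3 (282 nt). It lay farther in, at 1235 nt in NUP210, 1249 nt in TMBIM6 and 3307 nt in TMCO1. These distances start from the ends of another source and build than the peak distances below, and the spans of the 2 sources differed by 0 to 299 nt, so runs and peaks were not matched to each other.

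All 7 messages held the pentamer TTTTT on the transcript strand in their last 300 nt, as did 10773 of the 19601 coding genes whose chosen transcript is at least that long (55.0%). The share of T in those 300 nt had a median of 37.7% in the 7, against 30.0% over all coding genes (interquartile range 24.0 to 35.3%). It ran from 27.3% in NUP210 to 44.0% in ARL6IP1, which was as high as or higher than in 99.2% of coding genes. The longest run of T in the last 300 nt had a median of 6 nt in the 7, against 5 nt over all coding genes. A match of this kind is a feature of the message and not a located contact, and the genes were few and chosen. In NUP210 and TMCO1 the peaks with the highest fold lay 1148 and 3631 nt from the end of the bounds, farther in than this window.

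The leading peak of each message, the one with the highest fold in its bounds, was examined first. All 7 held many immunoprecipitated reads in both replicates over the smallest input number that occurs, which is 1 and may stand for 0 or 1 read. Reads were recovered from the authors' values, as the processing notes describe.

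The leading peak of TMCO1 spanned chr1:165697159-165697227, minus strand (hg19, as all positions of peaks here). Replicate 1 had 137 reads and replicate 2 had 109, and the input number was 1. The listed log2 fold was 7.23 ± 0.07 (SD, n = 2), which is 150-fold and the highest in the list. In ARL6IP1 the peak at chr16:18803032-18803160 (minus) had 110 and 113 reads over 1, a log2 fold of 7.10 ± 0.33. BEX3 had 105 and 99 reads over 1 on chromosome X from 102632788 to 102632924, plus strand, a log2 fold of 6.97 ± 0.24. In ARL6IP1 and BEX3 the read numbers of the replicates were within 6 reads of each other although replicate 1 had the larger library, and in TMCO1 replicate 1 had more.

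TMBIM6 had 108 reads in replicate 1 and 78 in replicate 2 over 1 on chromosome 12 from 50158598 to 50158650, plus strand, a log2 fold of 6.82 ± 0.03. NUP210 had 113 and 74 reads over 1 on chromosome 3 from 13358885 to 13358975, minus strand, a log2 fold of 6.82 ± 0.13. In both, as in TMCO1, replicate 1 had the larger number. DGCR2 had 85 and 88 reads over 1 on chromosome 22 from 19023828 to 19023897, minus strand, a log2 fold of 6.73 ± 0.34. GPC3 had 79 and 85 reads over 1 on chromosome X from 132669999 to 132670053, minus strand, a log2 fold of 6.66 ± 0.38, which is 101-fold. The SDs leave out the error of the input, which both replicates share.

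Because the input number was 1 at all 7, their order by fold is their order by reads, scaled by library. An input number of 1 was found at 1152 of the 2247 reproducible peaks with recovered reads (51.3%), and the 7 are among the 10 highest of these. Counting error alone left wide room: exact 95% intervals of the log2 fold from the reads of each replicate had lower bounds from 3.87 in GPC3 to 4.68 in TMCO1 in replicate 1, and from 4.20 in NUP210 to 4.83 in ARL6IP1 in replicate 2. By reads of both replicates together the 7 ranked from 48 to 116 in the list, and by −log10 p from 25 to 77. The lowest of the 7, GPC3, was rank 10 at 6.66, and the next peak, on chromosome 16 from 89880456 to 89880503 (minus), stood at 6.60. The other 3 of the 10 were on chromosome 7 from 148700594 (7.15), on chromosome 3 from 39449302 (7.04) and on chromosome 14 from 73568097 (6.90).

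**Figure D1:**
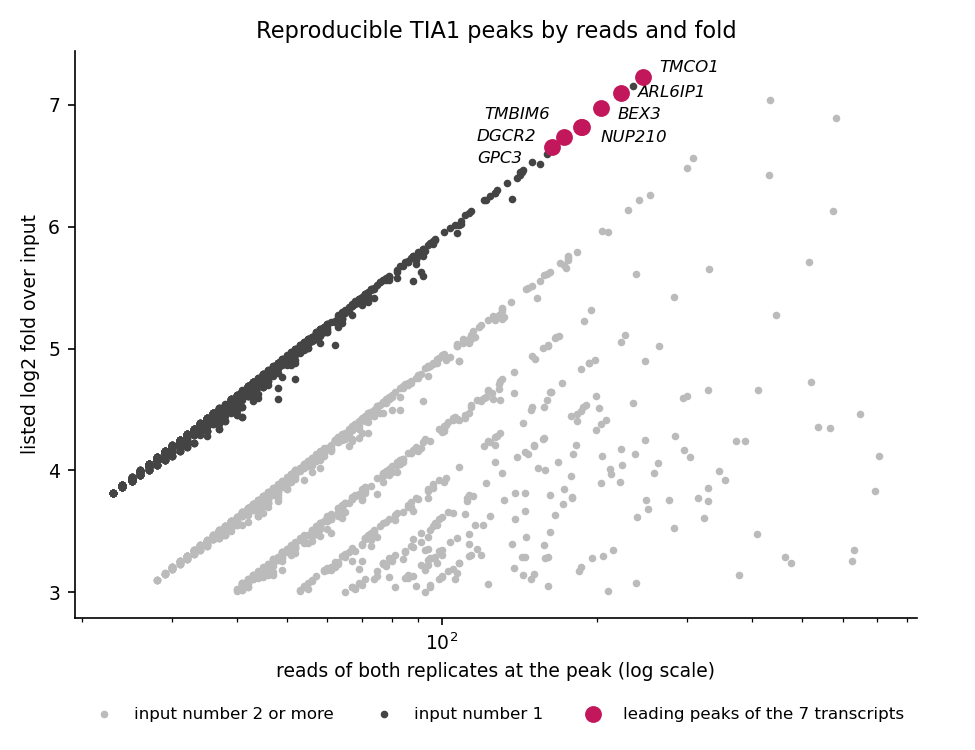
Each point is a reproducible peak with recovered reads, with the reads of both replicates on a log axis and the authors' listed log2 fold over input. The 7 leading peaks lie at the upper end of the line of peaks with an input number of 1, between log2 folds of 6.66 and 7.23, and peaks with more reads than TMCO1 had higher input numbers.

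The difference between replicates was not used by the rule and was tested at the 7 leading peaks, against the share of replicate 1 in the library totals (57.3%). The share of replicate 1 in the reads was 48.2% in GPC3 (exact 95% interval 40.3 to 56.1), 49.1% in DGCR2 (41.5 to 56.8) and 49.3% in ARL6IP1 (42.6 to 56.1). It was 60.4% in NUP210 (53.0 to 67.5), the highest of the 7. In the exact binomial test (two-sided) with Benjamini-Hochberg adjustment over the 7, ARL6IP1, DGCR2 and GPC3 each had an adjusted p = 0.0732 and the others were higher. No peak passed 0.05 after adjustment and 3 did before it, and the log2 fold was higher in replicate 2 at 5 of the 7. The difference of the log2 fold, replicate 2 minus replicate 1, ran from -0.19 in NUP210 to 0.53 in GPC3, and at this depth no test set it apart from counting error.

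The distance from the nearest edge of each leading peak to the 3' end of the gene bounds was measured next. The bounds came with the list of members, in hg19, and not from the deposited files. The peak lay 33 nt from the end in DGCR2, 41 nt in ARL6IP1, 67 nt in TMBIM6, 168 nt in BEX3 and 226 nt in GPC3. Those 5 messages thus had their strongest contact close to the annotated end. It lay 1148 nt from the end in NUP210 and 3631 nt in TMCO1, so the description as a 3' end site did not hold for these 2 by the bounds used. GENCODE release 29 lists shorter coding transcripts of TMCO1 that end 2502, 3013 and 3245 nt before its farthest end, while its only such NUP210 transcript runs to the end. The final exon of the chosen transcript is 3829 nt long in TMCO1 and 1547 nt in NUP210. These lengths are of GRCh38 and no position was carried over, so exon or intron was not assigned to any peak.

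The widths of the leading peaks ran from 53 nt in TMBIM6 to 137 nt in BEX3 with a median of 70 nt, against a median of 53 nt over the other 2246 reproducible peaks (interquartile range 44 to 66). TMBIM6 and GPC3 (55 nt) lay inside that range, while BEX3 and ARL6IP1 (129 nt) were among 19 peaks of the list (0.843%) at least as wide as 129 nt. Widths were not compared at matched reads, and the 7 had more reads, with medians of 108 (replicate 1) and 88 (replicate 2), against 24 and 20 in the other peaks.

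These leading peaks were mostly not alone. Only DGCR2 and BEX3 had a single reproducible peak, and the other 5 messages held 10 more between them. At 4 of the 7 leading peaks (TMCO1, ARL6IP1, TMBIM6 and NUP210) the next reproducible peak began within 100 nt, as did 320 of the other 2246 peaks (14.2%).

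Clusters of each replicate were then followed along the messages. Clusters are called enriched here where the authors' log2 fold over input and their −log10 p both reach 3. In replicate 1, 19 of the 134 clusters (14.2%) were enriched, against 3.09% of all clusters. In replicate 2, 20 of 79 (25.3%) were enriched, against 5.32%. By other limits, 26 clusters of replicate 1 and 26 of replicate 2 passed a log2 fold of 1 at the same p, against 4.14% and 6.36% of all clusters. At a log2 fold of 4 and a −log10 p of 5, 16 and 16 passed, against 0.886% and 1.51%, and at a log2 fold of 3 with no limit on p, 25 and 23 passed, against 6.95% and 13.1%. The leading peaks were chosen by fold, so these counts are set by the rule in part. Leaving out the clusters that make up the leading peaks, 11 of 126 (8.73%) in replicate 1 and 11 of 70 (15.7%) in replicate 2 were enriched. All of these share the message of a leading peak and some lie next to it, so they are not independent of it. No cluster lay on the opposite strand of the 7 genes in either replicate.

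**Figure D2:**
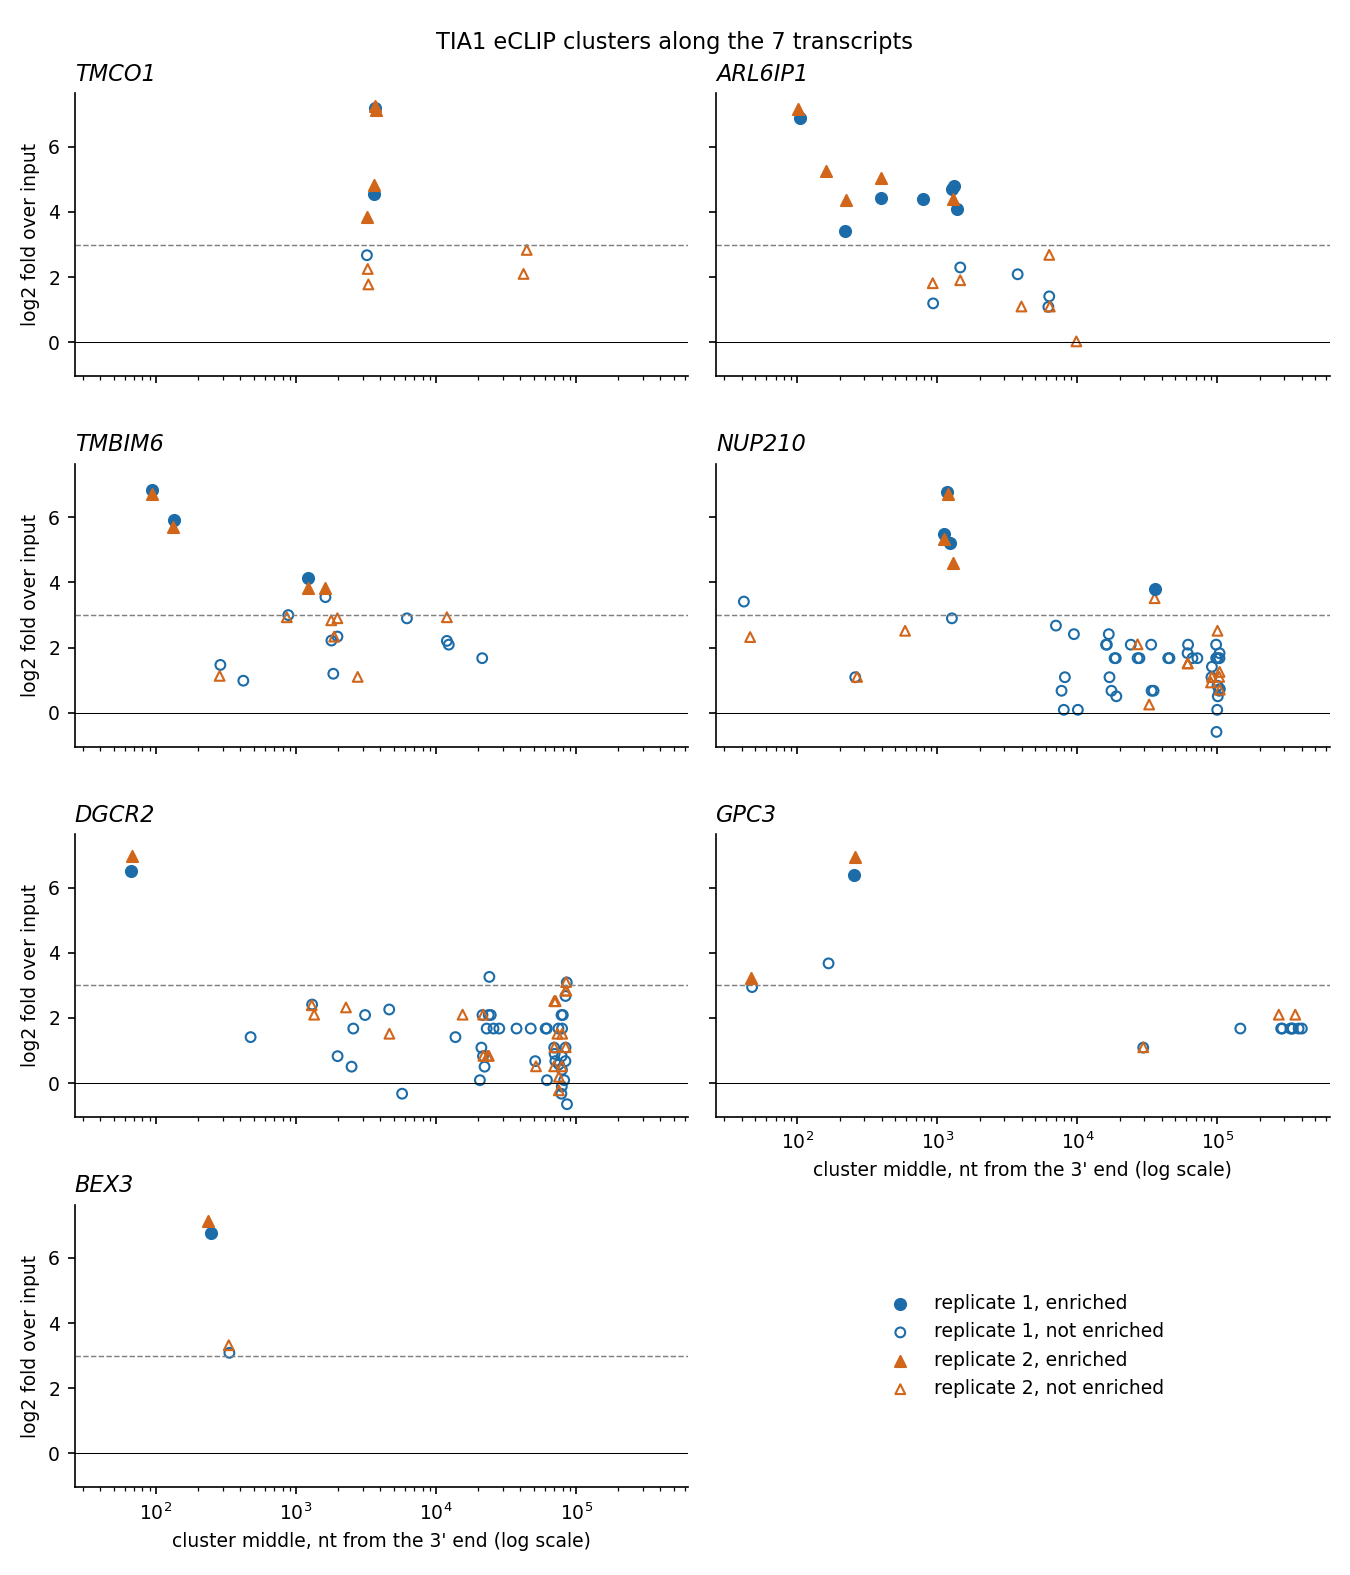
Every cluster of the 7 transcripts is drawn by the distance of its middle from the 3' end of the gene bounds (log axis) and its log2 fold over input, with filled marks for enriched clusters and a dashed line at 3. Enriched clusters of BEX3, GPC3 and DGCR2 lie within 500 nt of the end, those of TMCO1 at least 3181 nt from it, and NUP210 and DGCR2 carry many low clusters along their length.

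TMCO1 had 3 clusters in replicate 1 and 8 in replicate 2, all at least 3181 nt from the 3' end. Next to the leading peak, 30 nt away toward the 3' end, a reproducible peak from 165697083 to 165697128 had 22 and 20 reads over 1, a log2 fold of 4.69 ± 0.20. A further one from 165696709 to 165696751 had 19 and 30 reads over 3, a log2 fold of 3.29 ± 0.77, and reached only 2.75 in replicate 1. In replicate 2 the leading peak was listed as 2 abutting clusters of 106 and 98 reads, which must share reads since 109 were recovered over the whole peak. The remaining clusters of replicate 2 had 3 to 12 reads and none was enriched. No cluster of TMCO1 was listed in the 3181 nt before the end of its bounds.

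ARL6IP1 had the most reproducible peaks, 5, in 2 groups. Near its 3' end the leading peak was followed upstream by a peak from 18803194 to 18803235 with 22 and 29 reads over 2 (log2 fold 3.96 ± 0.58) and by another from 18803358 to 18803417 with 61 and 69 reads over 3 (4.74 ± 0.43). Farther upstream, 2 abutting peaks from 18804224 to 18804334 had 73 and 38 reads (4.43 ± 0.37) and 79 and 59 reads (4.81 ± 0.003), each over 3. In replicate 2 a single cluster of 74 reads over 5 spanned most of both. These abutting peaks lie 1233 to 1343 nt from the end of the bounds. GENCODE lists 2 shorter ARL6IP1 transcripts that end 1280 and 1355 nt before the longest, by its own positions. Replicate 1 had 2 further enriched clusters, which overlapped no cluster of replicate 2 and no reproducible peak. The one 779 to 804 nt from the end, between the groups, had 20 reads over 1 (log2 fold 4.41), and the one 1367 to 1389 nt from the end, just upstream of the abutting peaks, had 16 reads over 1 (4.09). Also between the groups, clusters within 902 to 951 nt of the end had 28 and 32 reads in the 2 replicates, each over 13 in the input, log2 folds of 1.19 and 1.81, so the input covered this message at that place.

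TMBIM6 carried a pair of abutting peaks at its 3' end, which may count some reads in both. The one from 50158570 to 50158597 had 57 reads in replicate 1 and 36 in replicate 2 over 1, a log2 fold of 5.80 ± 0.17, the highest of the 10 further peaks. A further peak 1188 nt from the end, from 50157488 to 50157529, had 36 and 20 reads over 2 (4.05 ± 0.30). Farther upstream, a cluster 1607 to 1632 nt from the end was enriched in replicate 2 with 10 reads over 1 (log2 fold 3.84), while the overlapping cluster of replicate 1 had 11 reads over 1 (3.55), short of the −log10 p of 3 at 2.57. Beyond it, within 1755 to 2007 nt of the end, clusters of replicate 1 had 38, 28 and 48 reads over input numbers of 8, 13 and 11. Those of replicate 2 there had 47, 53 and 20 reads over 9, 15 and 4. Their log2 folds ran from 1.19 to 2.90, so none was enriched. The cluster 250 nt from the end in replicate 1 had 39 reads over an input number of 15, a log2 fold of 1.47. Its counterpart 252 nt from the end in replicate 2 had 23 reads over 15, a log2 fold of 1.13. Both had a higher input number than the leading peak nearby, where it was 1.

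NUP210 had 46 clusters in replicate 1 and 17 in replicate 2 over its 104073 nt. Its second reproducible peak, from 13358826 to 13358874, had 42 and 28 reads over 1, a log2 fold of 5.40 ± 0.11, and lay 10 nt downstream of the leading peak. Just upstream, a cluster from 13359007 to 13359037 was enriched in replicate 2 with 17 reads over 1 (log2 fold 4.60), while the overlapping cluster of replicate 1 had 7 reads over 1 (2.89) and was not. Outside this stretch the only enriched cluster was one of replicate 1 from 13393308 to 13393344, 35571 nt from the end, with 13 reads over 1 (3.79). Its counterpart in replicate 2 had 8 reads over 1 (3.51) and did not reach the −log10 p of 3. At the very 3' end, 17 to 66 nt from it, replicate 1 had 10 reads over 1 (3.41), and at 20 to 72 nt replicate 2 had 7 over 2 (2.32). Over all NUP210 clusters outside the leading peak the median was 4 reads (replicate 1) and 4.5 reads (replicate 2).

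DGCR2 had 45 clusters in replicate 1 and 25 in replicate 2, and besides the leading cluster none of them was enriched. The others held 3 to 15 reads in replicate 1, at a median log2 fold of 1.41, and 3 to 11 reads in replicate 2, at a median of 1.51. At 7 of them in replicate 1 and 2 in replicate 2 the −log10 p was 0, so the reads were not recovered. Summed over the rest, they had 192 and 111 reads over input numbers of 76 and 55. The highest shared cluster besides the leading one, at 83965 nt from the end, had 6 reads in replicate 1 and 5 in replicate 2 over 1, log2 folds of 2.67 and 2.84.

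GPC3 spans 449901 nt, the longest of the 7, and had 12 clusters in replicate 1 and 5 in replicate 2. Its second reproducible peak lay 21 nt from the 3' end, from 132669794 to 132669845, with 29 and 26 reads over 4, a log2 fold of 3.08 ± 0.19. It was enriched in replicate 2 (3.21) and just under the fold of 3 in replicate 1 (2.95). A cluster between both peaks had 12 reads over 1 in replicate 1 (3.67, −log10 p of 2.86) and none was listed there in replicate 2. In replicate 1, 8 of the clusters held 3 reads each over 1 and lay between 145718 and 400668 nt from the end. None of them overlapped a cluster of replicate 2.

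BEX3, the shortest gene at 1825 nt, had 2 clusters in each replicate. Besides the leading peak, a short cluster 329 nt from the end in replicate 1 had 8 reads over 1, a log2 fold of 3.09. The overlapping one in replicate 2, at 324 nt, had 7 reads over 1, a log2 fold of 3.32. Neither reached the −log10 p of 3.

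The overlap of the other clusters between replicates was counted next, with no test of its difference from clusters at large. In replicate 1, 38 of 126 (30.2%) overlapped a cluster of replicate 2 on the same strand, against 28.9% of all clusters. In replicate 2, 38 of 70 (54.3%) overlapped one of replicate 1, against 45.0%. Many were small, and 35 of the 126 and 16 of the 70 held 3 reads.

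How far the leading cluster stood above the next highest outside the leading peak was compared in each replicate, as a description. Where a leading peak was listed in pieces, the other piece was left out. In replicate 2 that piece had a log2 fold of 7.13 in TMCO1, beside 7.24 in the leading cluster. In ARL6IP1 it had 5.27, beside 7.17. With these pieces counted, the steps of TMCO1 and ARL6IP1 in replicate 2 would be smaller than given here, and that of TMCO1 the smallest. The leading peak of NUP210 was split in replicate 1, where the other piece had 5.22 beside 6.76. That is below its next highest cluster (5.48), so its step would not change. With pieces left out, the step was smallest in TMBIM6, 0.92 on the log2 scale in replicate 1 and 1.04 in replicate 2. There the next cluster abuts the leading one, so the 2 may count some reads in both, and the step depends on where they were split. It was 1.28 in replicate 1 in NUP210, 2.06 and 2.13 in ARL6IP1, and 2.64 and 2.41 in TMCO1. In GPC3 it was 2.72 and 3.71, in DGCR2 3.24 and 3.87, and in BEX3 3.69 and 3.82. The messages thus ran from TMBIM6, with a strong neighbour, to BEX3 and DGCR2, with low ones, and the 3 with steps above 2.7 in both replicates were DGCR2, GPC3 and BEX3.

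**Figure D3:**
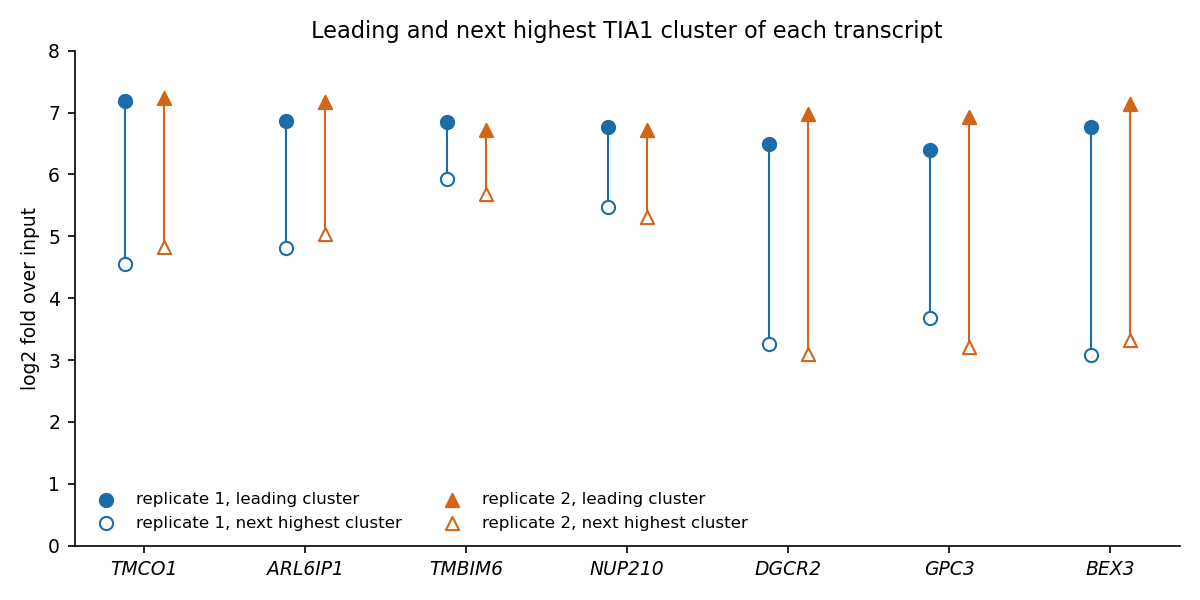
For each transcript and replicate, the filled mark is the log2 fold over input of the leading cluster. The open mark, joined by a line, is that of the next highest cluster outside the leading peak, with pieces of a split leading peak left out. The step is shortest in TMBIM6 (0.92 and 1.04) and longest in BEX3 and DGCR2 in replicate 2 (3.82 and 3.87).

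The leading cluster took a large part of the reads that fell in clusters of its message. A leading peak listed in pieces was counted by its main piece, and the other piece was left out. The share was 92.8% in replicate 1 and 93.4% in replicate 2 in BEX3, where the input number was shared evenly (50.0% in each). In TMCO1 it was 77.4% of 177 reads in replicate 1 and 57.0% of 186 in replicate 2, against 20.0% and 6.67% of the input number. In GPC3 it was 53.4% and 70.8% of the reads, against 6.25% and 11.1% of the input number. The shares of GPC3 had exact 95% intervals of 45.0 to 61.6 and 61.8 to 78.8, which do not overlap, and those of TMCO1 did not overlap either (70.5 to 83.3 and 49.5 to 64.2).

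In the other 4 messages the leading cluster held a smaller share. In DGCR2 it was 30.7% in replicate 1 (25.3 to 36.5) and 44.2% in replicate 2 (37.2 to 51.4), again with intervals that do not overlap. It was 30.4% and 39.8% in NUP210, 24.1% and 29.6% in ARL6IP1, and 25.9% and 23.3% in TMBIM6. Of the input number in the same clusters it was between 1.30% and 2.63% in these 4. In all 7 messages and both replicates the share of the reads was above the share of the input number, which follows from the choice by fold. Input outside clusters is not in the lists and does not enter these shares. The intervals cover counting error only. They do not cover that different clusters were listed in each replicate, 12 and 5 in GPC3, 3 and 8 in TMCO1, and 45 and 25 in DGCR2. Clusters without recovered reads are also left out, so intervals that do not overlap need not reflect a difference at the leading peak.

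**Figure D4:**
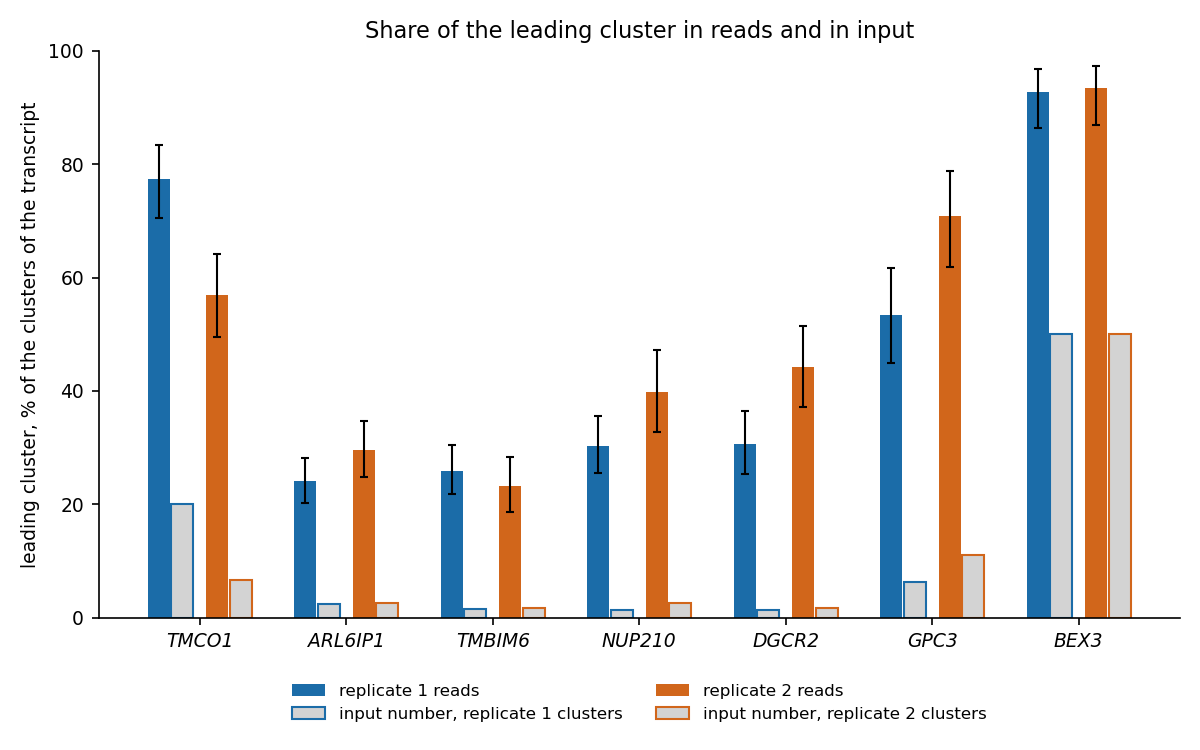
Coloured bars give the leading cluster's percentage of the recovered immunoprecipitated reads in the clusters of its transcript, with exact 95% binomial intervals, and grey bars the same percentage of the input number, per replicate. BEX3 has the highest share (92.8 and 93.4% of reads), TMBIM6 and ARL6IP1 the lowest (23.3 to 29.6%), and each grey bar is below the coloured bar beside it.

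By position, clusters within 500 nt of the 3' end numbered 16 of 134 in replicate 1 and 14 of 79 in replicate 2. They held all recovered reads of BEX3 in both replicates, and 81.1% and 92.5% of those of GPC3. In TMBIM6 they held 52.0% and 41.8%, in ARL6IP1 41.8% and 58.4%, and in DGCR2 34.3% and 44.2%. In NUP210 they held 4.17% and 5.38%, and TMCO1 had none there. By this fixed window the messages thus ran from BEX3 with all reads near the end to TMCO1 with none there. For TMCO1 this depends on the end used. GENCODE lists coding transcripts of it that end 2502 to 3245 nt before the farthest one, and the one it marks as principal ends 2502 nt before. Shares by those ends were not computed. The window covers more of a short message than of a long one. The chosen GENCODE transcript is 921 nt long in BEX3, 4468 nt in TMCO1 and 7193 nt in NUP210. Shares were not scaled to length, and the place near the 3' end took part in the choice.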

How the data were processed

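The members, bounds and lists were chosen with earlier results of these data known. Clusters were called per replicate by the authors, who also deposited 1 list of reproducible peaks. The submitters' processing notes name STAR 2.4.0i, SAMtools 1.4.1 and cutadapt (1.9.1 and 1.14), and build hg19. The sources used here give no cluster caller. The authors deposited a log2 fold over input and a −log10 p-value per interval, with a ceiling of 400. The lists have no header, so the units were read from the values, and the input enters only through them.

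Reads were recovered from the discrete steps of the log2 fold and the −log10 p (relative tolerance 2e-05). The listed p-values matched a chi-square test with Yates' correction, or Fisher's exact test for intervals with any observed or expected number below 5; this form was found from these data. This gave 2683407 reads in replicate 1, 1997817 in replicate 2 and 2851338 in the input, and unique reads at 88.7% and 93.4% of clusters. Clusters with a −log10 p of 0 gave none, and abutting clusters can count a read in each. At a reproducible peak, the replicate whose cluster supplied the bounds gave its listed value and the other came from the mean, with reads whole within 1e-04. The recovery was tested only on data simulated with the same form of p-value and the same totals, so that test could not check either.

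Intervals sharing 1 nt or more of a strand counted as overlapping. A cluster belonged to a leading peak when at least 50% of it lay inside. Exact binomial tests and Clopper-Pearson 95% intervals used scipy 1.17.1. No test across samples was possible, since both replicates share 1 input. Genes named are the 7 members, with every reproducible peak in their bounds and the peaks around rank 10.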

Additional observations from a re-analysis of the deposited data

How the results depend on the processing

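Of 27 alternatives to the summary results, 17 kept a count within 1.5 times or a value within the spread of the replicates. The others moved beyond that, and a reversal of direction was not checked for. The 2 settings that widen the leading peak, to its pieces and to clusters within 100 nt, were chosen after seeing the data. On the opposite strand the clusters in the genes numbered 0 in each replicate. Within 2000 nt of the 3' end there were 34 clusters in replicate 1 and 29 in replicate 2. With 1 read added to both numbers the median log2 fold of the leading peaks was 5.84 instead of 6.82, and it was 6.97 without replicate 1 and 6.84 without replicate 2. The median share of the leading cluster in the reads of its message, 36.3% over both replicates, ranged from 30.7% without replicate 2 to 44.2% without replicate 1. It was 47.4% over clusters of at least 5 reads and 54.8% with clusters within 100 nt. The median distance to the 3' end, 168 nt from the nearest edge, was 236 nt from the middle of the peak and 168 to 194 nt with the bounds of 1 replicate. The exact binomial test of the replicates called 0 leading peaks against either share, with 3 and 2 below an unadjusted 0.05. No paired analysis was possible because the immunoprecipitated replicates are 1 group and share 1 input. Depth limits the precision of the fold, since the input number was 1 at all 7 leading peaks.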
